A study of Homo sapiens with 4 samples.

Results

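The small leucine-rich proteoglycans (SLRPs) are secreted matrix proteins, and 9 of them were listed for description by their gene symbols: *LUM*, *DCN*, *BGN*, *FMOD*, *OGN*, *PRELP*, *ASPN*, *OMD* and *PODN*. The list was drawn up after *LUM* had been seen to differ in these same libraries, so the fold changes of its members are given as a description and carry no p-value. Of the 22578 genes in the deposited table, 4 are members of this list: *LUM*, *DCN*, *BGN* and *PRELP*. *FMOD*, *OGN*, *ASPN*, *OMD* and *PODN* were not analysed here. The libraries were made from U87MG, an established glioblastoma cell line of human origin; the passage label gives 8, whereas the treatment text gives passage 5. The tested cells carried a short hairpin RNA against *KDM2B*, which encodes an H3K36 demethylase (shKDM2B), and the control cells a hairpin against firefly luciferase (shControl). All cells had been transduced with retrovirus on day 1, kept in puromycin at 1 µg/ml from day 3 and harvested on day 9. There were 2 libraries per group, made from polyadenylated RNA and read as 50 bp single ends in 3 lanes. The labels call the 2 libraries of a group biological replicates without naming what separates them, so the spread between them may be technical.

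An SLRP consists of a core of leucine-rich repeats that folds into a curved solenoid, and many members carry chondroitin, dermatan or keratan sulfate chains. Decorin and biglycan (*DCN*, *BGN*) bear chondroitin or dermatan sulfate, whereas lumican and fibromodulin (*LUM*, *FMOD*) bear keratan sulfate. The cores bind fibrillar collagens and limit the lateral growth of fibrils, and several also bind growth factors such as TGF-β or cell surface receptors. They are best known from cornea, tendon, skin and cartilage, and in the brain mainly from the meninges and the walls of vessels.

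The perturbation is fixed by the hairpins that the study designed against *KDM2B*, of which the supplement names a pair. The stretch of each that matches *KDM2B* mRNA is shown in capitals because it states what was targeted.
shKDM2B-1: CCTGAACCACTGCAAGTCTAT
shKDM2B-2: TCAACCTGTCTGACTGCAATA
Each match is 21 bases long and lies in coding sequence, on chromosome 12 in GRCh37, reverse strand. The first spans 121878983 to 121879003 within 1 exon, and the second crosses a splice junction between 2 exons, from 121877671 down to 121868264. They were found in 5 and 4 of 18 annotated *KDM2B* transcripts, in transcripts of 0 other genes, and on either strand in 0 of the 29 annotated transcripts of the 4 measured proteoglycans. The sources used here do not say which of the pair went into which library; the shKDM2B libraries are also numbered 1 and 2, and whether those numbers name the hairpins is not stated.

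KDM2B binds unmethylated CG dinucleotides through its CXXC zinc finger. The promoters of *BGN* and *PRELP* differed widely in this dinucleotide, and the 100 bases before each start are shown with every CG in capitals (RefSeq, GRCh38.p14, forward strand).
*BGN* promoter, chrX:153494880-153494979: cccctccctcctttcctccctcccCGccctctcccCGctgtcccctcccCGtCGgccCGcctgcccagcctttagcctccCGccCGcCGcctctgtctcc
*PRELP* promoter, chr1:203475706-203475805: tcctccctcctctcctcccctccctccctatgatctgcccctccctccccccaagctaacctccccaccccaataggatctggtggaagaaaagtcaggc
Over the window from 250 bases before to 50 after the start, *BGN* held 19 CG dinucleotides and *PRELP* 1, where the median of 35116 promoters was 14. Of all promoters, 58.8% held no more CG than *BGN*. The motif TATAAA, searched on both strands, was not found in either window and was present in 11.5% of all promoters. Of the 4 members, 2 matched an entry of this table; *LUM* and *DCN* did not.

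Counts summed to 33330886 to 33770421 in shKDM2B and to 30470803 to 31433165 in shControl. *KDM2B* itself averaged 14.0 ± 0.990 CPM (TMM-scaled counts relative to library size) in shKDM2B cells and 42.4 ± 0.841 CPM in shControl cells (SD, n = 2 each), or -1.60 ± 0.06 (standard error) on the log2 scale, with an adjusted p of 3.33e-19 in the edgeR quasi-likelihood test. Of the 21783 genes whose mean count reached 10 in either group, 13.3% were called higher and 6.79% lower, where a call needed an adjusted p (Benjamini-Hochberg) up to 0.05 together with a 1.5-fold change. The median change over the genes tested was 0.01 on the log2 scale. Of 10 listed astrocytic and glioma markers, 6 were measured, and 1 was called higher and 1 lower. *VIM*, the intermediate filament vimentin (24.6% of its exonic bases shared with other genes), was abundant at 2512 CPM in shKDM2B and 4459 CPM in shControl cells. It was called lower (-0.83 on the log2 scale), but not with fold changes centred on ribosomal protein genes (-0.49). *GFAP*, the astrocytic filament gene (19.9% shared), was sparse at 4.84 CPM in shKDM2B and 2.45 CPM in shControl cells, and was called higher (0.98). The others were not called. *OLIG2*, a glial transcription factor, was at 0.897 CPM in shKDM2B and 0.898 CPM in shControl cells. *SLC1A3* was at 35.7 CPM in shKDM2B and 29.7 CPM in shControl cells, *NES* at 24.4 and 27.7 CPM, and *SLC1A2* at 1.41 and 1.65 CPM. Whether counting used the strand is not stated, so reads of overlapping or antisense genes cannot be told apart, and shares of overlapping exons of 10% or more are given beside the genes named.

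*LUM*, which encodes lumican, was the most abundant of the 4 measured members in both groups and had the largest difference between them. It had 2327 and 2452 counts in the shKDM2B libraries, against 226 and 213 counts in the shControl libraries. Both shKDM2B libraries stood far above both shControl libraries, and within each group the pair lay close together. Scaled by TMM, expression was 68.1 ± 3.09 CPM in shKDM2B cells and 7.42 ± 0.147 CPM in shControl cells (SD, n = 2 each). The log2 fold change was 3.20 (standard error 0.06), a 9.17-fold higher level in shKDM2B cells, and it ranked 102 among the 21783 genes tested. Leaving out each library in turn gave 3.15 to 3.24. In GRCh37, *LUM* (ENSG00000139329) occupies positions 91496406 to 91505271 of chromosome 12 on the reverse strand, and none of its exonic bases, nor those of the other 3 members, belong to another annotated gene as well.

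*DCN* encodes decorin, a collagen-binding SLRP that also sequesters TGF-β and binds several receptor tyrosine kinases. It had 112 and 123 counts in the shKDM2B libraries, against 76 and 66 in the shControl libraries. The groups did not overlap, as was the case for 77.6% of all genes tested. Expression was 3.35 ± 0.250 CPM in shKDM2B cells and 2.40 ± 0.186 CPM in shControl cells (SD, n = 2 each). The log2 fold change of 0.48 (standard error 0.15) stayed under 1.5-fold, and *DCN* was not called. The ratio of the depth-scaled counts, shKDM2B over shControl, was 1.39 (exact 95% counting interval 1.13 to 1.73, which covers counting error only). With fold changes centred on ribosomal protein genes, the value was 0.82 and *DCN* was called higher. *DCN* (ENSG00000011465) lies on the reverse strand of chromosome 12, from 91534261 to 91576994.

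*BGN* encodes biglycan, the closest relative of decorin and, in soluble form, a ligand of Toll-like receptors. It was near the detection limit, with 10 and 9 counts in the shKDM2B libraries and 3 and 4 in the shControl libraries. Its mean was under 10 counts in both groups, so it was not tested. The counting interval of its ratio of 2.29 ran between 0.920 and 6.44, so a difference was not detectable at this depth. Without the filter on low counts, the log2 fold change was 1.17 and *BGN* was not called. *BGN* (ENSG00000182492) lies on the forward strand of chromosome X, from 152760438 to 152775004.

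*PRELP* encodes a proline- and arginine-rich SLRP that anchors basement membranes to collagen. It had 147 and 136 counts in the shKDM2B libraries, against 112 and 142 in the shControl libraries. The groups overlapped after scaling, at 4.03 ± 0.188 CPM in shKDM2B cells and 4.30 ± 0.812 CPM in shControl cells (SD, n = 2 each). The log2 fold change was -0.09 (standard error 0.14), and the ratio of 0.939 had a counting interval of 0.789 to 1.12. Its sign rested on 1 library and on the scaling: it was 0.12 without shControl 2 and 0.25 when centred on ribosomal protein genes. *PRELP* (ENSG00000188783) lies on the forward strand of chromosome 1, from 203444934 to 203460480.

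**Figure D1:**
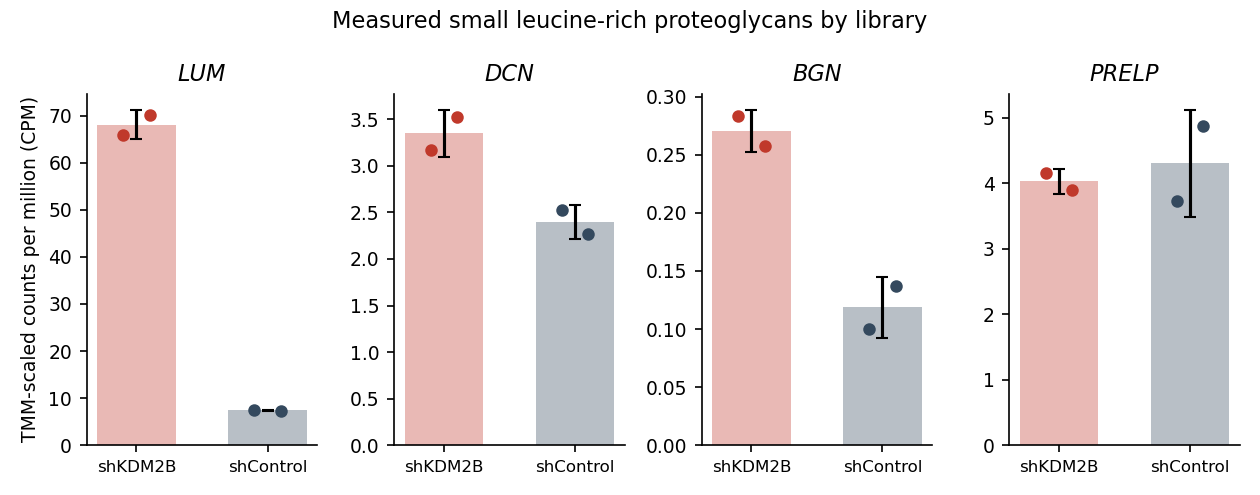
Expression of the 4 measured SLRPs in TMM-scaled CPM, each with its own linear axis from 0; points are libraries, bars are group means and error bars are SD (n = 2). The *LUM* libraries sit at 65.9 and 70.3 CPM in shKDM2B cells and at 7.52 and 7.32 CPM in shControl cells, while those of *PRELP* overlap.

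Among the 3 members tested, 1 was called higher, where 13.3% of all genes were; nothing is read from this count, because the list was chosen on this contrast. No member was called lower by edgeR, with 0 lower at an unadjusted p under 0.05 and 0 lower by DESeq2. At the adjusted p without a fold threshold, 2 of the 3 were higher, *LUM* and *DCN*, as were 28.4% of all genes tested.

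Expressed per kilobase of merged exons, the 4 genes kept the same order in both groups. *LUM* was at 25.5 ± 1.16 CPM per kilobase in shKDM2B cells and 2.78 ± 0.0551 in shControl cells (SD, n = 2 each). *PRELP* followed at 0.698 ± 0.0325 in shKDM2B and 0.746 ± 0.141 in shControl cells. *DCN* was at 0.259 ± 0.0193 in shKDM2B and 0.185 ± 0.0144 in shControl cells, and *BGN* came last at 0.113 ± 0.00743 in shKDM2B and 0.0493 ± 0.0110 in shControl cells. Libraries of neighbors in this order did not overlap within either group. By level per kilobase, *LUM* ranked 1493 among the 15125 protein-coding genes of the deposited table in shKDM2B cells and 8941 in shControl cells. Nearly all genes of that table were detected in each library, and genes absent from it do not enter these ranks. The other 3 stayed low in both groups, with 3.34% (*BGN* in shControl) to 21.9% (*PRELP* in shControl) of these protein-coding genes below them. With the longest transcript as length, *DCN* was at 0.489 in shKDM2B and 0.350 in shControl cells, and the order was the same.

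*LUM* accordingly made up more of the counts of the 4 measured members in shKDM2B cells. Other measured SLRPs, given below, are outside this total. Of the counts of the 4 genes, 89.6% and 90.1% came from *LUM* in the shKDM2B libraries (exact 95% binomial intervals 88.4 to 90.8 and 89.0 to 91.2), against 54.2% and 50.1% in the shControl libraries (49.3 to 59.1 and 45.3 to 55.0). The share of *PRELP* was 5.66% and 5.00% in shKDM2B, against 26.9% and 33.4% in shControl. That of *DCN* was 4.31% and 4.52% in shKDM2B, against 18.2% and 15.5% in shControl. The counts of all 4 genes together were 2596 and 2720 in shKDM2B and 417 and 425 in shControl.

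**Figure D2:**
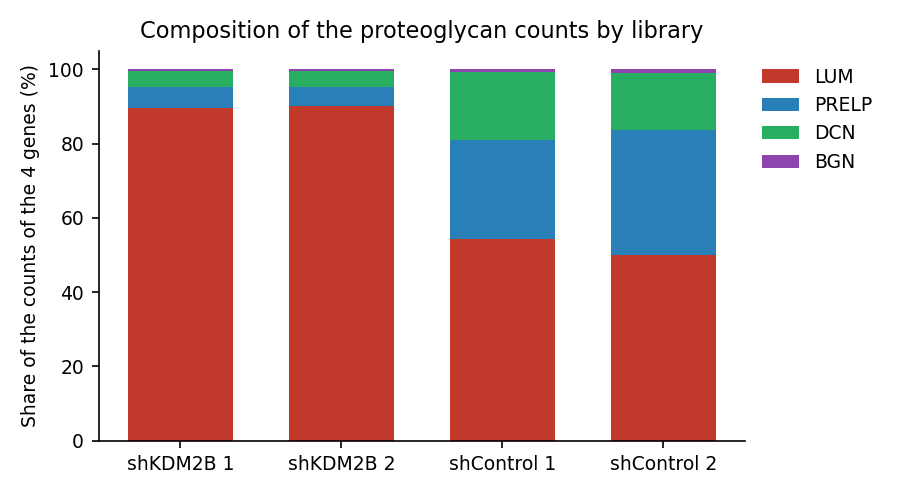
Share in percent of the summed raw counts of *LUM*, *PRELP*, *DCN* and *BGN* in each library. *LUM* takes 89.6% and 90.1% in the shKDM2B libraries and 54.2% and 50.1% in the shControl libraries.

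*LUM* and *DCN* stand 29.0 kb apart on the same strand, in a cluster that also holds the SLRP genes *KERA* (keratocan) and *EPYC* (epiphycan). Within 250 kb of *LUM*, the GRCh37 annotation lists 9 genes, 4 of them protein-coding, and *DCN* was the one measured. The adjacent genes differed in their change, with log2 fold changes of 3.20 for *LUM* and 0.48 for *DCN*. *KERA* and *EPYC* were not analysed here. Around *BGN*, 10 genes within 250 kb were measured, and the 1 called was *ZNF275*, a zinc finger gene (0.59 higher in log2 units, not called without shControl 1 at 0.50). Around *PRELP*, 3 of 6 measured neighbors could be tested. *BTG2*, an antiproliferative gene, rose by 1.27, and *ATP2B4*, a plasma membrane calcium pump gene, fell by 0.87 on the log2 scale (-0.53 and not called when centred on ribosomal protein genes). *CHIT1*, with 18 and 8 counts in shKDM2B and 8 and 6 in shControl, was not called (0.64, adjusted p = 0.299 by edgeR). With so few genes, nothing is read from these counts of neighbors.

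**Figure D3:**
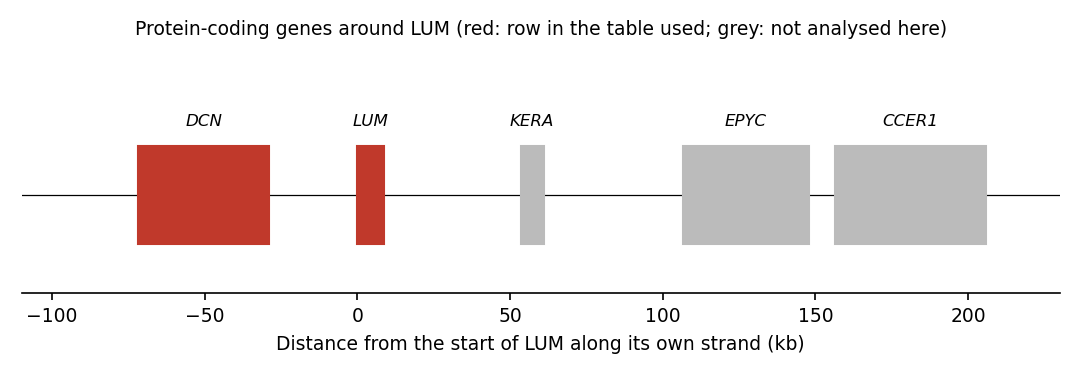
Protein-coding genes around *LUM* on chromosome 12, as distance in kb from its start along its own strand; red boxes are genes with a row in the table used, grey boxes genes not analysed here. *DCN* lies upstream of *LUM*, 29.0 kb away.

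Other members of the SLRP family were listed beside the 9, and 6 of these 9 further genes were measured. Of the 5 tested, 3 rose in shKDM2B cells and 0 fell by edgeR (0 at an unadjusted p under 0.05 and 0 by DESeq2), with a median log2 fold change of 0.80. Among all genes tested, 13.3% rose and 6.79% fell. This list and those below were chosen with earlier results of these data known, so such shares are given for scale only. *TSKU*, which encodes tsukushi, a secreted modulator of BMP and Wnt signaling, had 1360 and 1311 counts in shKDM2B, against 435 and 412 in shControl. Both shKDM2B libraries were well above the shControl libraries, and the log2 fold change of *TSKU* was 1.41 (standard error 0.06, adjusted p = 4.35e-18 by edgeR). *PODNL1*, a podocan-like gene, had 121 and 128 counts in shKDM2B, against 67 and 53 in shControl, and rose by 0.80 (adjusted p = 5.43e-05 from the same edgeR test). *CHAD*, which encodes the cartilage protein chondroadherin and shares 15.5% of its exonic bases with *ACSF2*, had 27 and 19 counts in shKDM2B, against 8 and 9 in shControl. Its log2 fold change of 1.18 (adjusted p = 0.0128 by edgeR) was not called without shKDM2B 1 (0.91), without shControl 1 (1.08) or by DESeq2 (1.18). *ECM2* and *CHADL* had values of 0.31 (adjusted p = 0.229 by edgeR) and 0.06 (adjusted p = 0.504). In CPM per kilobase, *CHADL* (6.04) and *TSKU* (3.57) exceeded *LUM* (2.78) in shControl cells. In shKDM2B cells *LUM* (25.5) exceeded both *TSKU* (9.48) and *CHADL* (6.31). *OPTC*, which encodes opticin of the vitreous and lies 2.80 kb from *PRELP*, had 8 and 9 counts in shKDM2B and 6 and 11 in shControl, too few to be tested.

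Fibrillar collagens, the main ligands of lumican and decorin, were mostly higher. Of 10 measured, 8 rose and 0 fell by edgeR (0 at an unadjusted p under 0.05 and 0 by DESeq2), where 13.3% of all genes rose, and their median log2 fold change was 1.47 where that of all genes was 0.01. *COL1A1* and *COL1A2*, the chains of type I collagen, both rose, by 1.47 each in log2 units (adjusted p = 4.80e-25 and 1.04e-25 by edgeR). *COL1A2* averaged 1139 ± 26.6 CPM in shKDM2B and 409.6 ± 8.78 CPM in shControl cells (SD, n = 2 each). *COL5A1* and *COL5A2*, whose type V collagen nucleates type I fibrils, also rose, with *COL5A2* at 222 ± 1.56 CPM in shKDM2B and 78.4 ± 1.28 CPM in shControl cells. *COL11A1*, a chain of the related type XI collagen, had 714 and 690 counts in shKDM2B, against 50 and 40 in shControl, and rose by 3.71 (adjusted p = 2.38e-20 by edgeR). Those that did not pass were *COL27A1* (0.48) and *COL11A2* (-0.61, adjusted p = 0.298 by edgeR).

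Of 13 genes that process procollagen or crosslink fibrils, 7 rose and 1 fell, with a median of 0.59. Of all genes tested, 13.3% rose and 6.79% fell. *BMP1*, the procollagen C-proteinase that also cleaves probiglycan to its mature form, had 3255 and 3279 counts in shKDM2B, against 911 and 861 in shControl, and rose by 1.64 (standard error 0.04, adjusted p = 1.57e-22 by edgeR). *PCOLCE2*, a procollagen C-proteinase enhancer, rose by 1.37 and *ADAMTS14*, a procollagen N-proteinase, by 2.75. *PCOLCE*, the other enhancer gene (16.8% shared with *PCOLCE-AS1*), fell by 0.76 on the log2 scale, but was not called when centred on ribosomal protein genes (-0.42). *LOXL3*, a lysyl oxidase-like gene sharing 25.5% of its exonic bases with neighbors, rose by 0.59. It stayed under 1.5-fold with DESeq2 size factors (0.58), by DESeq2 (0.58), without shKDM2B 1 (0.57) and without shControl 1 (0.56). The crosslinking enzyme gene *LOX* had a value of 0.08 and *LOXL2* of -0.16, both under 1.5-fold, and that of *LOXL2* turned to 0.18 when centred on ribosomal protein genes.

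The proteases known to cut SLRPs overlapped with this list in *BMP1*, *TLL1* and *TLL2*. Of 9 measured, 2 rose and 1 fell, with a median of 0.48, where 13.3% and 6.79% of all genes tested did. Counts this small are no result about these proteases as a group. *TLL1*, which encodes a tolloid-like relative of BMP1, had 53 and 47 counts in shKDM2B, against 3 and 6 in shControl, a ratio of 9.36 (exact 95% counting interval 4.74 to 21.1), and rose by 3.19 on the log2 scale (3.79 without shControl 2). *MMP3*, which encodes stromelysin-1, had 3238 and 2625 counts in shKDM2B, against 16515 and 16080 in shControl, and fell by 2.72 on the log2 scale (adjusted p = 3.92e-26 by edgeR). *MMP14*, whose membrane-bound product cleaves lumican, had a log2 fold change of 0.57, just under 1.5-fold, and was called higher without shControl 2 (0.62) and when centred on ribosomal protein genes (0.91).

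Most enzymes that build the sugar chains stayed under 1.5-fold. None of the 7 enzymes of the linker that joins chains to the core was called by edgeR, with 4 higher and 2 lower at an unadjusted p under 0.05 and 0 called by DESeq2. Their log2 fold changes lay between -0.17 and 0.45. Without shControl 2, 1 of them was called higher. Of 14 chondroitin and dermatan sulfate enzymes, 2 rose and 0 fell by edgeR (3 lower at an unadjusted p under 0.05, 0 by DESeq2), with a median of 0.08; the share called, 14.3%, was close to the 13.3% of all genes called higher and is no result about these enzymes. The called genes were *CHSY3* (0.88) and *CHPF* (0.63), which extend the chondroitin backbone. *CHPF* was not called without shControl 1 (0.53), which left 1 call in the list. *DSE* and *DSEL*, the epimerases that turn chondroitin into dermatan sulfate, had values of 0.31 (10.3% shared) and -0.45 (37.6% shared), both under 1.5-fold. Of 8 keratan sulfate enzymes, 2 rose and 0 fell by edgeR (2 lower at an unadjusted p under 0.05, 0 by DESeq2), with a median of 0.01. Counts this small, beside the 13.3% of all genes called higher, are no result about these enzymes as a group. *B4GALT1*, a galactosyltransferase, rose by 0.72 (adjusted p = 4.25e-17 by edgeR). The 2 lower genes were *B4GALT4* (-0.38, adjusted p = 1.56e-06 by edgeR) and *B3GNT2* (-0.21, adjusted p = 0.00384), both under 1.5-fold. *CHST6*, which encodes the corneal sulfotransferase for keratan sulfate, had 16 and 31 counts in shKDM2B, against 5 and 5 in shControl, and rose by 1.96 (adjusted p = 9.19e-04).

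Growth factors and receptors that SLRPs bind moved in both directions. Of 17 tested, 5 rose and 5 fell, with a median of -0.10, where 13.3% and 6.79% of all genes tested did. *TGFB3*, a growth factor, and *CTGF* (now CCN2; 11.9% shared), a matricellular protein that decorin binds, rose by 1.56 and 1.22 (adjusted p = 6.39e-13 and 4.85e-20 by edgeR). *TLR4*, a receptor for soluble biglycan, had 127 and 120 counts in shKDM2B, against 39 and 18 in shControl, and rose by 1.86 (2.51 without shControl 1). *EGFR* and *MET*, receptor tyrosine kinases that decorin antagonizes, fell by 0.93 and 0.78 on the log2 scale (adjusted p = 1.60e-19 and 5.25e-19 by edgeR). *ITGB1*, the integrin subunit through which lumican acts on cells, fell by 0.99, and *CD44*, the hyaluronan receptor, by 0.74. Centred on ribosomal protein genes, *MET* (-0.44) and *CD44* (-0.40) were not called, and 2 genes of the list were lower. *TLR2*, with 6 and 8 counts in shKDM2B and 11 and 5 in shControl, was not tested.

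Of 22 core proteins of other proteoglycan families, 6 rose and 5 fell, with a median log2 fold change of 0.05. Among all genes tested, 13.3% rose and 6.79% fell. *GPC6* and *GPC1*, which encode glypicans anchored to the membrane, rose by 1.02 and 0.80, and *TGFBR3*, the TGF-β coreceptor betaglycan, by 1.05. *ESM1*, which encodes endocan, fell by 2.34 on the log2 scale and *SRGN*, the granule proteoglycan serglycin, by 1.05 (adjusted p = 2.44e-14 and 2.91e-17 by edgeR). The large aggregating proteoglycan gene *VCAN* had a value of 0.13. Per kilobase, *LUM* at 25.5 CPM in shKDM2B cells exceeded *VCAN* at 17.3, whereas in shControl cells *LUM* at 2.78 lay below *VCAN* at 15.8. Over all 9 lists, 33 of 102 genes tested rose and 12 fell, where 13.3% and 6.79% of all genes did. Because the lists were chosen with earlier results of these data known, no enrichment is read from these shares. The same holds for those of the fibrillar collagens.

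**Figure D4:**
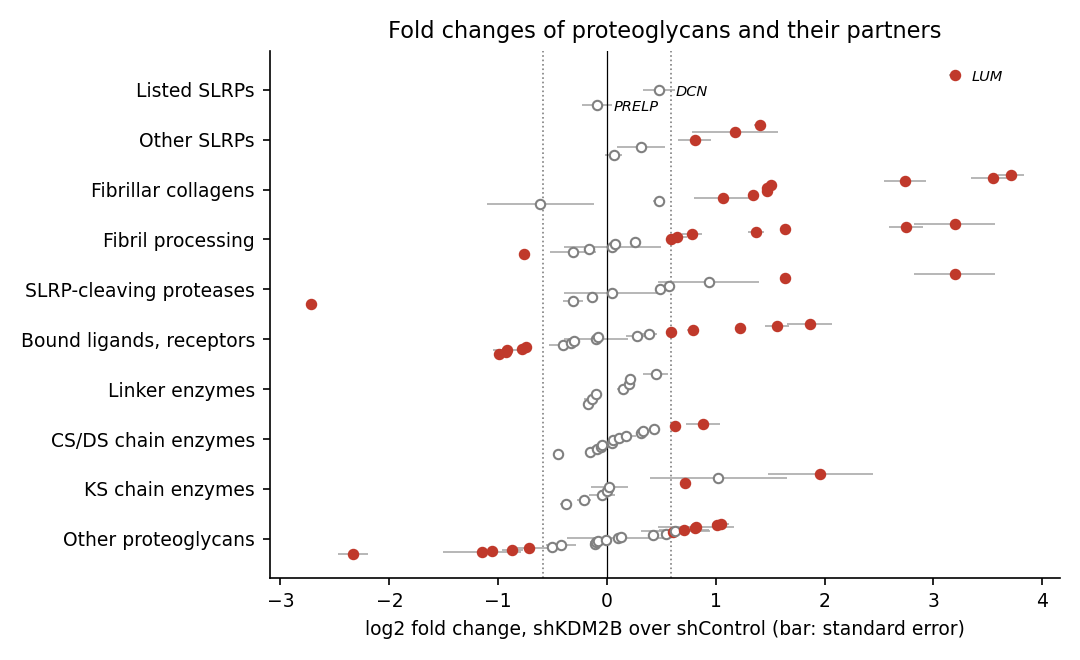
Log2 fold changes (shKDM2B over shControl) with standard errors for the tested SLRPs and the genes of 9 related lists; filled red points were called, open points were not, and dotted lines mark 1.5-fold. *LUM* at 3.20 lies to the right, with 8 of 10 fibrillar collagens also called higher.

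Fibroblasts and vessel mural cells express SLRPs and fibrillar collagens, and some of the markers of these cells were also higher in shKDM2B cells. Of 10 such markers, 5 rose (4 by DESeq2) and 0 fell by edgeR (1 lower at an unadjusted p under 0.05, 0 by DESeq2), where 13.3% of all genes rose, and their summed level was 293 to 295 CPM in shKDM2B and 250 to 253 CPM in shControl cells. *FAP*, which encodes fibroblast activation protein, rose by 1.31, *PDGFRA* by 1.75 (16.1% shared), *PDGFRB* by 0.62 and *TCF21* by 1.46 (23.5% shared). Without shKDM2B 2, neither *PDGFRB* (0.55) nor *TCF21* (1.19) was called, and *TCF21* was not called by DESeq2 (1.47). *THY1* (12.5% shared) had 20 and 14 counts in shKDM2B, against 1 and 1 in shControl, a ratio of 14.3 (exact 95% counting interval 3.67 to 123). The other 5 were not called: the mural genes *RGS5* (-0.20), *ACTA2* (-0.16, 36.2% shared) and *CSPG4* (-0.11), *PDPN* (-0.01), whose values all turned positive when centred on ribosomal protein genes, and *TAGLN* (0.49, 47.8% shared; called higher without shKDM2B 2 at 0.76 and when centred at 0.83). The part of these markers in the *LUM* result was not tested, and in bulk RNA a change in the number of cells of a type and a change in RNA per cell cannot be told apart. The 4 endothelial markers measured summed to 10.5 to 11.5 CPM in shKDM2B and 9.31 to 9.99 CPM in shControl cells, mostly from *KDR* (8.87 CPM in shKDM2B and 7.32 CPM in shControl). Of these markers, *VWF* rose by 1.31 on the log2 scale, from few counts (29 and 36 in shKDM2B, against 10 and 12 in shControl). *TEK* fell by 1.32 (21 and 23 counts in shKDM2B, against 57 and 36 in shControl). Leaving out each library in turn gave -1.59 to -0.97 for *TEK*. The 4 immune markers measured summed to 237 to 242 CPM in shKDM2B and 294 to 301 CPM in shControl cells, mostly from *CD68*, which shares 85.6% of its exonic bases with other genes and was at 224 CPM in shKDM2B and 284 CPM in shControl cells. *CSF1R* was at 14.7 CPM in shKDM2B and 13.1 CPM in shControl cells, whereas the leukocyte gene *PTPRC* had 7 and 3 counts in shKDM2B and 3 and 10 in shControl, and *ITGAM* 10 and 9 in shKDM2B and 2 and 12 in shControl.

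The 5 genes whose values over the 4 libraries most resembled those of *LUM*, by distance between centred log2(CPM + 1) values, were *COL11A1*, *MGP*, *ID3*, *TRPM3* and *FOS*. Their distances were 0.129, 0.132, 0.199, 0.281 and 0.286 log2 units, out of all genes with a symbol and a mean count of at least 50. Because libraries within a group lay close together, this distance mainly follows the size of the difference between the groups. It picks genes with a rise like that of *LUM*, and shared regulation was not tested. *MGP*, whose product, matrix Gla protein, limits calcification, averaged 9.24 CPM in shKDM2B and 0.355 CPM in shControl cells. *ID3*, an inhibitor of DNA binding that BMP signaling induces, averaged 137 CPM in shKDM2B and 16.9 CPM in shControl cells. *FOS*, an immediate early gene, averaged 54.8 CPM in shKDM2B and 7.28 CPM in shControl cells. *TRPM3*, a cation channel gene, averaged 16.0 CPM in shKDM2B and 1.49 CPM in shControl cells. Adding 1 CPM understates the change of low genes. Among these are *MGP*, with a fitted log2 fold change of 4.69, *COL11A1* (3.71) and *TRPM3* (3.42), against 3.20 for *LUM*.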

How the data were processed

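RNA-seq of 4 U87MG libraries was analysed from the table the authors deposited. Base calls had been converted with CASAVA 1.8.2, reads aligned to hg19 with TopHat2 2.0.11 and alignments processed with SAMtools 0.1.19.0 before counting on Ensembl gene models, by the submitters' processing notes and the paper. For the Ensembl release and the strand setting: not given in the sources used here. The deposited raw counts per gene, with lanes combined, were used throughout. The deposited normalized values (a signal, counts divided by a DESeq size factor), and the authors' fold change, log2 fold change and p-value columns, were not used.

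Counts were scaled by TMM and tested with the quasi-likelihood test of edgeR 4.0.16 (R 4.3.3) without covariates. The filter kept genes whose mean count reached 10 in either group, and a call needed an adjusted p (Benjamini-Hochberg) up to 0.05 and 1.5-fold. A chi-square test per gene between the libraries of a group gave p under 0.05 for 9.34% of genes in shKDM2B and 11.7% in shControl, more than sampling alone gives. Each library was counted as its own sample, although this excess cannot tell separate cultures from separate library preparations. The common coefficient of variation that edgeR fitted beyond sampling was 2.62%. Gene positions, exon lengths and shared exonic bases came from GENCODE on GRCh37 (bedtools 2.31.1), and 21646 identifiers matched it. Intervals were exact (scipy 1.17.1) and cover counting error only. The p-values set each group difference against the spread between these libraries, estimated with information shared across genes. That spread may be technical, so they may not cover variation between separate cultures.

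The members and lists were chosen with earlier results of these data known. Named by rule were all listed members, up to 5 called genes of smallest adjusted p per list, any gene of a list with 5 or fewer calls, the neighbors of *LUM* and *DCN* within 250 kb, the 5 genes nearest to *LUM*, and *KDM2B*. Outside this rule, *LOX*, *LOXL2*, *COL27A1*, *COL11A2*, *VCAN*, *TGFB3*, *TLR4*, *TLR2* and the neighbors of *BGN* and *PRELP* were named after their values were seen. Alternatives changed the scaling, filter, tool (DESeq2 1.42.0), fold threshold, prior count, exon length, replicate block and the library left out.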

Additional observations from a re-analysis of the deposited data

How the results depend on the processing

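*LUM* was called higher under all 11 alternatives, with log2 fold changes of 3.15 to 3.54. Because *LUM* was picked for its rise in these same libraries, these calls describe the processing only and are no independent support. Centring on 78 ribosomal protein genes put the median over all tested genes at 0.35 (log2), against 0.01 with TMM. It gave 6130 genes higher and 482 lower, so that 92.7% of calls were higher, against 66.1% with TMM. Under it 2 SLRPs were higher (*DCN* added), 6 related genes lower, 1 linker, 5 chondroitin or dermatan sulfate and 5 protease genes higher, and 0 fibril processing, 2 ligand or receptor and 3 other proteoglycan genes lower. Signs that turned include those of *PRELP* (0.25), *LOXL2* (0.18), *CSPG4* (0.23), *RGS5*, *ACTA2* and *PDPN*. The cause was not tested. At the adjusted p alone, which drops the fold threshold, 6188 genes were higher and 6417 lower; 2 SLRPs were higher, as were 51 related genes with 29 lower. By list, these were 4 linker genes higher and 2 lower, 6 chondroitin or dermatan sulfate genes higher and 3 lower, 2 keratan sulfate and 2 fibril processing genes lower, 9 ligand or receptor genes lower, 4 protease genes higher and 3 lower, and 8 other proteoglycan genes lower.

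Leaving out 1 library gave 0 to 1 linker genes and 1 to 2 chondroitin or dermatan sulfate genes higher. With the longest transcript as length, the level of *DCN* moved as given above. With the replicate number as a block, 2927 genes were higher and 1482 lower, and 1 SLRP and 33 related genes were higher with 12 lower. The libraries share only a number: deviations of same-numbered libraries correlated at 0.0628 across genes. Depth limits genes with few counts, such as *BGN*.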
